A study of Mus musculus with 12 samples.

Results

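The genes of caveolae, 8 in all among the 54532 genes of each table, were followed in mouse distal colon and urinary bladder with and without YAP and TAZ in smooth muscle. They were taken by symbol, as the caveolins Cav1, Cav2, and Cav3, the cavins Cavin1, Cavin2, and Cavin3, and the neck proteins Ehd2 and Pacsin3, and each had a single row in every table. All 8 passed the filter on low values in both tissues. The 12 libraries of polyadenylated RNA came from whole tissue of 9 male mice, aged 5 to 7 weeks, with 3 Ctrl and 3 Y/T KO libraries per tissue. Both genotypes carried floxed Yap1 and Wwtr1 and received 1 mg tamoxifen a day in 5 daily injections, and tissue was taken on day 7 counted from the first injection. The Y/T KO mice carried Myh11CreERT2, a tamoxifen-dependent recombinase under the smooth muscle myosin promoter, whereas Ctrl mice had no Cre, so that loss of YAP and TAZ and the presence of active Cre cannot be told apart. Cells that do not use the Myh11 promoter keep both alleles. In the colon, mice 788, 786, and 787 were Ctrl and mice 759, 783, and 780 were Y/T KO. In the bladder, mice 784, 785, and 788 were Ctrl and mice 782, 783, and 780 were Y/T KO. Values per library are given in these orders throughout. Levels are TPM as the authors deposited them, each transcript's share of its library in parts per 1000000, which corrects for transcript length and can therefore be compared between genes.

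Caveolae are flask-shaped pits of the plasma membrane that are abundant in smooth muscle, endothelium, and fat. Caveolins are hairpin membrane proteins that form the coat together with the cavins, cytosolic proteins that trimerize and stabilize it, and EHD and PACSIN proteins hold the neck. Caveolae flatten when the membrane is stretched and gather receptors, channels, and pumps of contractile signaling. YAP and TAZ have no DNA-binding domain and act on genes through TEAD factors, which recognize the sequence GGAATG.

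The upstream sequences of the 4 members that differed most between genotypes in the bladder are shown because they are the stretches in which the TEAD letters were searched. RefSeq sequences on GRCm38.p6 covered 250 bases before and 50 after each annotated start, and 10 such windows matched 7 of the 8 members. Cavin3, whose bladder log2 fold change of -0.44 was close to the -0.45 of Cavin1, had no window and was not searched. The sequences below are the 250 bases before the first listed start, 5′ to 3′, with GGAATG or its reverse complement in capitals. They lie at chr6:17306085-17306334 (plus strand) for Cav1, chr6:112459255-112459504 (plus strand) for Cav3, chr11:100970618-100970867 (minus strand) for Cavin1, and chr7:15967536-15967785 (minus strand) for Ehd2.
Cav1 upstream: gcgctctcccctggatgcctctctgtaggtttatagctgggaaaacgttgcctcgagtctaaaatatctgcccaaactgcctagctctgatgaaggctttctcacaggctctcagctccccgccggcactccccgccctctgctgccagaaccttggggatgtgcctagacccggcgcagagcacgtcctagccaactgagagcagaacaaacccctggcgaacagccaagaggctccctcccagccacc
Cav3 upstream: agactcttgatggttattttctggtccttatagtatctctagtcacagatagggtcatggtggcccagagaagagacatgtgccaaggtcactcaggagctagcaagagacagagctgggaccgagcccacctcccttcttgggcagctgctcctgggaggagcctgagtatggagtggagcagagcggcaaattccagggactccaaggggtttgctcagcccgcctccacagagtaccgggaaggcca
Cavin1 upstream: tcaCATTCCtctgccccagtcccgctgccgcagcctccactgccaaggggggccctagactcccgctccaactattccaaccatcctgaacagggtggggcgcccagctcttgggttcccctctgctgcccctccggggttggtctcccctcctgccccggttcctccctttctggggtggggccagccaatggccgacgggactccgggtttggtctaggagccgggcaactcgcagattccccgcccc
Ehd2 upstream: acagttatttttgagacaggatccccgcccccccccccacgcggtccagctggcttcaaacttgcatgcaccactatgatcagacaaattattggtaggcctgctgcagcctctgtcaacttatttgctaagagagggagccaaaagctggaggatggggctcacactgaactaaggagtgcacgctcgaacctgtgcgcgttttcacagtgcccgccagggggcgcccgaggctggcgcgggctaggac
Cav3 carried the same letters 18 bases after its start, in its first exon, at chr6:112459511-112459540 on the plus strand.
Cav3 first exon site: ggtggctggcagGGAATGccaggtctcctc

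GGAATG, searched on both strands, was present in 14.7% of all 32851 windows and in 4 of the 10 member windows. These windows belonged to 3 of the 7 matched members. The members were Cavin1 at bases -247 to -242 from its first start, Cav3 after its start, and Pacsin3 at -248 to -243 from its first start. The Cavin1 windows overlap and hold the same site. These starts are those of RefSeq. In the deposited coordinates Cavin1 begins at 100970887 (minus strand) and Pacsin3 at 91255954 (plus strand), so both matches lie within the gene. Cav1, Cav2, Cavin2, and Ehd2 had no such letters in their windows. The CArG box, the element bound by serum response factor at many contractile genes, was present in 1.63% of all windows and in 0 of the 10 member windows. These matches describe letters only, and no binding was measured here.

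The targeted genes were examined first as a check of the labels. Yap1 was at 54.9, 52.8, and 45.8 TPM in colon of Ctrl mice, at 44.0, 41.3, and 47.0 in Y/T KO colon, and at 101.1, 98.6, and 109.8 in Ctrl bladder and 71.3, 69.4, and 72.1 in Y/T KO bladder. The bladder groups did not overlap (log2 fold change -0.54 ± 0.08 SE, limma adjusted p = 0.0625), whereas the colon groups did (-0.17 ± 0.14, adjusted p = 0.697). Wwtr1 was not lower in either tissue, with mean TPM of 18.5 ± 2.58 in Ctrl and 20.4 ± 2.39 in Y/T KO colon and of 49.1 ± 15.0 and 56.2 ± 6.82 in bladder (SD, n = 3). These values are sums over the whole gene in whole tissue, so reads outside the floxed part and from other cells are included. At the protein level, the paper reports less YAP and TAZ in Y/T KO colon on Western blots. It also reports that their staining was reduced or lost in the muscle layers. Aligned sequence per library ran from 2.80 to 3.94 gigabases, and no counting error was available for single values.

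In Ctrl tissue, caveolar transcripts were led by Cavin1, the cavin without which caveolae do not form. Cavin1 was at 165.5, 149.7, and 144 TPM in Ctrl colon, and in Ctrl bladder at 481, 546.5, and 482. Cav1, the main caveolin of smooth muscle and endothelium, followed at 58.5, 54.2, and 61.4 TPM in colon and 244, 317, and 225 TPM in bladder. In the Ctrl colon the order of the means was Cavin1, Cav1, Cavin3, Ehd2, Cavin2, Cav2, Pacsin3, and Cav3, and the neighbours Cav1 and Cavin3, and Cavin2 and Cav2, overlapped between libraries. In the Ctrl bladder the same 6 genes led in the same order, and Cav3, the caveolin known from skeletal and cardiac muscle, stood above Pacsin3. The neighbours that overlapped there were Ehd2 and Cavin2, and Cav3 and Pacsin3. In Y/T KO colon the mean of Cavin3 stood above that of Cav1, with overlap between libraries. In Y/T KO bladder Cav1, Cavin2, and Cavin3 followed Cavin1 with overlapping neighbours. Cav3 was the least abundant member in the colon at 4.67 ± 0.49 TPM (SD, n = 3), against 32.9 ± 6.89 in the bladder.

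All 8 members were higher in Ctrl bladder than in Ctrl colon, with no overlap between the tissues. Every member was called at a limma adjusted p under 0.05 over 19439 genes, where 51.4% of all genes were called in either direction and 25.9% were called higher in bladder. The log2 fold changes ran from 1.21 ± 0.21 (SE, adjusted p = 0.000462) for Pacsin3 to 2.52 ± 0.21 (adjusted p = 1.77e-06) for Cav3, which is 5.73-fold. Between these were Cavin3 (1.27), Ehd2 (1.40), Cav2 (1.42), Cavin1 (1.45), Cavin2 (1.69), and Cav1 (1.90). The median of the 8 was 1.44, beside -0.01 over all genes. Without rescaling, the median of all genes rose by 0.26 on the log2 scale in this comparison, and the members were higher in bladder on that scale too. All 10 smooth muscle markers (Myh11, Acta2, and others) were also called higher in bladder with a median of 2.16, as were 9 of 10 endothelial markers (median 1.23) and 7 of 8 fibroblast markers (median 1.85). The 9 adipocyte markers that passed the filter in both tissues were all called higher, with a median of 3.00. In whole tissue, more cells of a type and more RNA per cell cannot be told apart.

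**Figure D1:**
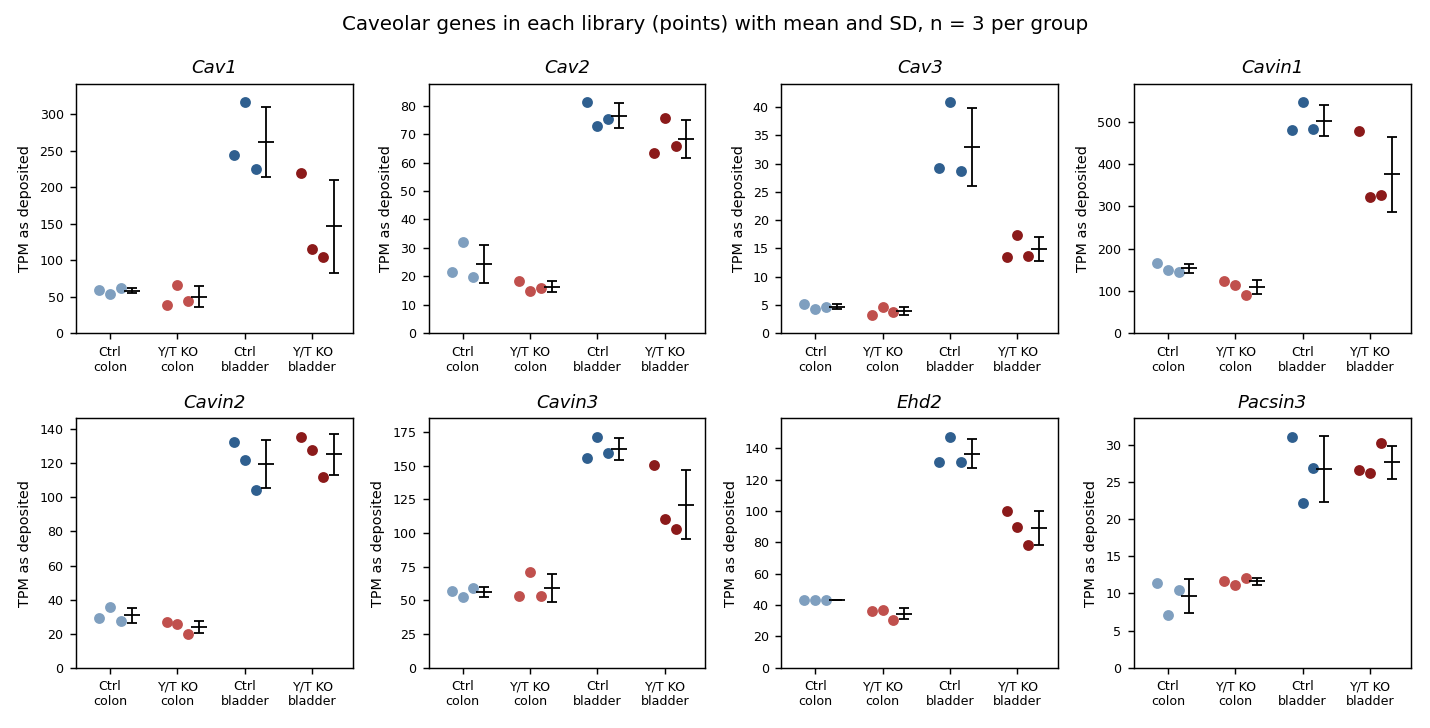
TPM of the 8 caveolar genes in every library (points), with mean and SD to the right of each group of 3 and the vertical axis starting at 0 in each panel. Bladder libraries lie above colon libraries for all 8 genes, and in the bladder Cav1, Cav3, Cavin1, Cavin3, and Ehd2 of Y/T KO mice lie below those of Ctrl mice.

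Of the caveolins, Cav3 and Cav1 had every Y/T KO bladder library below every Ctrl library, not past the threshold, and Cav2 overlapped. Cav3 was at 29.2, 40.9, and 28.8 TPM in Ctrl bladder and at 13.5, 17.3, and 13.7 in Y/T KO bladder. The 3 knockout libraries lay close together and far below the lowest Ctrl library, and the log2 fold change was -1.13 ± 0.20 (SE, 95% confidence interval -1.60 to -0.66, unadjusted p = 0.000835 and adjusted p = 0.101 in limma). Cav1 was at 244, 317, and 225 TPM in Ctrl and at 219, 115, and 104 in Y/T KO bladder. Mouse 782 lay just under the Ctrl range while mice 783 and 780 were well below it, and the fold change was -0.91 ± 0.28 (interval -1.59 to -0.23, adjusted p = 0.236). Cav2, which needs Cav1 to reach the surface, was at 81.3, 72.8, and 75.4 TPM in Ctrl and at 63.4, 75.7, and 65.8 in Y/T KO. Its groups overlapped and its fold change was -0.17 ± 0.12 (interval -0.46 to 0.13, adjusted p = 0.569).

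Among the cavins of the bladder, Cavin1 and Cavin3 were lower in all 3 knockout libraries and Cavin2 was not. Cavin1 was at 481, 546.5, and 482 TPM in Ctrl and at 477.5, 321, and 327 in Y/T KO bladder, with mouse 782 again next to the Ctrl range (-0.45 ± 0.15 SE, adjusted p = 0.255). Cavin3, an adaptor that binds protein kinase C delta, was at 155.8, 171, and 159 TPM in Ctrl and at 150.1, 110.1, and 103 in Y/T KO, a difference of almost the same size (-0.44 ± 0.14, adjusted p = 0.234). Cavin2, a cavin prominent in endothelium, was at 132, 122, and 104 TPM in Ctrl and at 135.5, 128, and 112 in Y/T KO, with overlapping groups (0.07 ± 0.14, interval -0.26 to 0.39, adjusted p = 0.851). The endothelial markers had a summed TPM of 448.5 to 471 in Ctrl and 460 to 503 in Y/T KO bladder and a median log2 fold change of 0.05 over 10 genes. The part of endothelial cells in the Cavin2 and Cav2 values was not tested.

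Of the neck genes, Ehd2, an ATPase that confines caveolae to the membrane, was lower in all 3 knockout bladders, and Pacsin3 was not. Ehd2 was at 131, 147, and 131 TPM in Ctrl and at 99.9, 90.1, and 78.2 in Y/T KO bladder. All 3 knockout libraries were well under the Ctrl range, and the fold change was -0.62 ± 0.11 (SE, interval -0.89 to -0.35, unadjusted p = 0.00115 and adjusted p = 0.106 in limma). Pacsin3, the F-BAR protein of muscle caveolae, was at 31.0, 22.2, and 26.8 TPM in Ctrl and 26.6, 26.1, and 30.2 in Y/T KO, with overlapping groups (0.06 ± 0.15, interval -0.31 to 0.42, adjusted p = 0.884).

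In the bladder comparison, 0 of 8 members were called by limma at an adjusted p under 0.05, where 0.302% of 18237 genes were called. At an unadjusted p under 0.05, 5 of 8 were lower and 0 higher, where 8.2% of all genes were lower. In 5 of 8, all knockout libraries lay below all Ctrl libraries, against 11.4% of all genes. The members were Cav1, Cav3, Cavin1, Cavin3, and Ehd2 in both counts, and the median over the 8 was -0.44 beside 0.00 over all genes tested. All 10 smooth muscle markers had lower means in Y/T KO bladder, with a median of -0.84, 6 of them at an unadjusted p under 0.05 and 0 called. Their summed TPM was 35480 to 46190 in Ctrl and 17000 to 31130 in Y/T KO, with mouse 782 again the highest of the knockouts. The paper, which tested read counts, lists the markers Acta2, Actg2, and Tagln as significantly lower in both Y/T KO tissues. The source of that difference from limma on TPM was not tested. Fitted fold changes of 9 of 10 adipocyte markers were above 0 (median 0.50), and those of 5 of 5 mesothelial (median -0.50) and 6 of 6 urothelial markers (median -0.19) were below 0, with 0 called. The part of these lists in the bladder values of the caveolar genes was not tested.

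The bladder libraries of Ctrl mouse 784 and Y/T KO mice 783 and 780 held more transcripts of fast skeletal fibers than the other bladders, and Cav3 is itself a skeletal muscle gene. Mylpf, a light chain of fast skeletal fibers, was at 165 TPM in Ctrl mouse 784, at 1.67 and 2.57 in the other Ctrl bladders, at 3.53 in Y/T KO mouse 782, and at 1667 and 1410 in mice 783 and 780. Myh4, a fast myosin, was listed at 0 in Ctrl mice 785 and 788 and in Y/T KO mouse 782, at 46.1 in Ctrl mouse 784, and at 409 and 432 in the other knockouts. The 9 striated muscle markers summed to 1386 to 2180 TPM in Ctrl bladder, 1284 in Y/T KO mouse 782, and 7733 and 8747 in mice 783 and 780, with 9 of 9 means higher in Y/T KO and 0 called. Other markers of the list were present in every bladder, and mouse 782 had Acta1 at 915 and Tnnt3 at 245 TPM. Cavin4, the muscle cavin, was at 2.12, 0.33, and 0.18 TPM in Ctrl and 0.36, 10.8, and 13.1 in Y/T KO bladder.

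**Figure D2:**
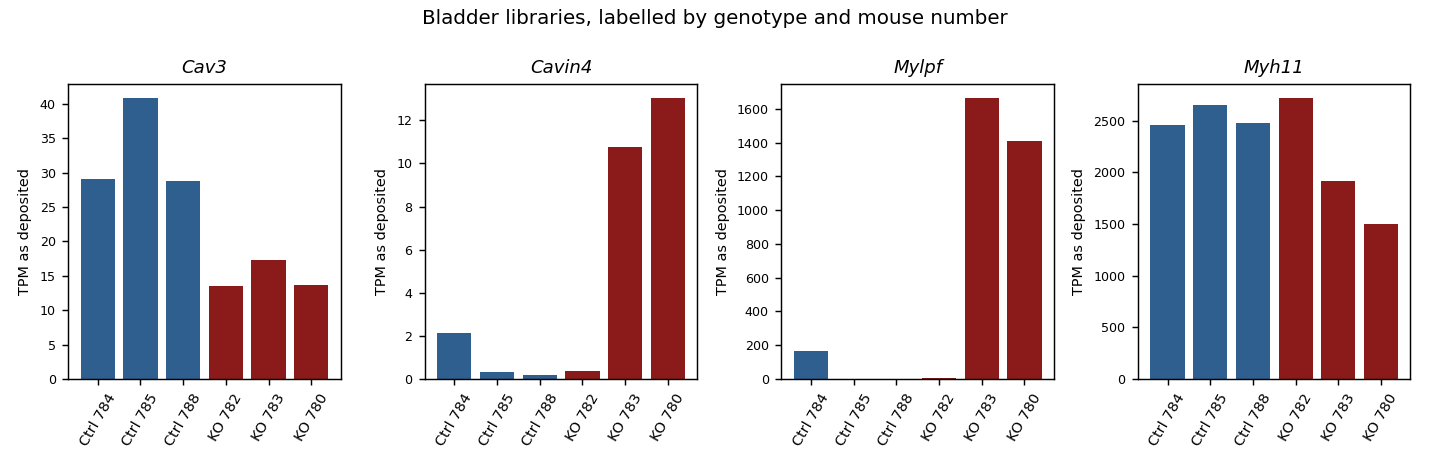
TPM of Cav3, the skeletal muscle genes Cavin4 and Mylpf, and the smooth muscle myosin Myh11 in the 6 bladder libraries (bars from 0; blue Ctrl, red Y/T KO). Cav3 is at 13.5 to 17.3 TPM in all 3 knockouts, and Mylpf is at 3.53 TPM in mouse 782 and at 1667 and 1410 in mice 783 and 780.

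With these 3 libraries left out, 1 knockout and 2 Ctrl bladders remained in a fit of 9 libraries, in which the lone knockout was assumed to vary like the other groups. The log2 fold change of Cav3 was then -1.36 (adjusted p = 0.529) and that of Ehd2 -0.51 (adjusted p = 0.953). Cav1 moved from -0.91 to -0.31, Cavin1 from -0.45 to -0.13, and Cavin3 from -0.44 to -0.17. With mouse 782 left out instead, Cav1 was at -1.21 (adjusted p = 0.0737) and Cavin1 at -0.60 (adjusted p = 0.0802). For Cav3 and Ehd2 the values with and without these libraries were close, whereas most of the Cav1, Cavin1, and Cavin3 differences came from mice 783 and 780.

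In the colon, Cav2, Cavin1, Cavin2, and Ehd2 were lower in all 3 knockout libraries, none of them past the threshold. Cavin1 was at 165.5, 149.7, and 144 TPM in Ctrl and at 123.6, 114, and 90.4 in Y/T KO colon. The groups did not overlap, and the log2 fold change was -0.46 ± 0.16 (SE, interval -0.83 to -0.09, unadjusted p = 0.022 and adjusted p = 0.461 in limma). Cav2 was at 21.3, 32.1, and 19.8 TPM in Ctrl and 18.4, 14.8, and 15.9 in Y/T KO (-0.51 ± 0.19, adjusted p = 0.481). Its Ctrl mean was raised by mouse 786, without which the difference was -0.36. Ehd2 was at 43.5, 43.1, and 43.0 TPM in Ctrl and 36.2, 37.0, and 30.6 in Y/T KO, a small difference between tight groups (-0.29 ± 0.14, adjusted p = 0.559). Cavin2 was at 29.1, 35.9, and 27.7 TPM in Ctrl and 26.6, 25.6, and 19.6 in Y/T KO (-0.33 ± 0.16, adjusted p = 0.559), again without overlap.

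The other members overlapped between genotypes in the colon. Cav1 was at 58.5, 54.2, and 61.4 TPM in Ctrl and at 39.1, 66.4, and 44.5 in Y/T KO, so that mouse 783 exceeded every Ctrl library (-0.21 ± 0.21 SE, interval -0.71 to 0.28, adjusted p = 0.756). The Cav1 difference was -0.43 without mouse 783 and -0.05 without mouse 759. The paper, which tested read counts, lists Cav1 among the transcripts significantly lower in both Y/T KO colon and Y/T KO bladder. Cav1 was not called in either tissue by limma on TPM, and the source of that discrepancy was not tested. Cav3 was at 5.17, 4.18, and 4.67 TPM in Ctrl and 3.21, 4.63, and 3.78 in Y/T KO (-0.24 ± 0.24, interval -0.79 to 0.31, adjusted p = 0.754). Cavin3 was at 56.8, 52.1, and 59.3 TPM in Ctrl and 52.9, 71.4, and 53.3 in Y/T KO (0.10 ± 0.17, interval -0.30 to 0.50, adjusted p = 0.863). Mouse 783 was the highest knockout for Cav1, Cav3, and Cavin3 alike. Pacsin3 was at 11.4, 7.10, and 10.4 TPM in Ctrl and 11.7, 11.1, and 12.1 in Y/T KO (0.33 ± 0.24, interval -0.24 to 0.89, adjusted p = 0.683), and without Ctrl mouse 786 its difference was 0.06.

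In the colon comparison, 0 of 8 members were called by limma at an adjusted p under 0.05, where 0.137% of 17500 genes were called. At an unadjusted p under 0.05, Cav2 and Cavin1 were lower, which is 2 of 8 where 4.59% of all genes were lower. In 4 of 8 (Cav2, Cavin1, Cavin2, and Ehd2), all knockout libraries lay below all Ctrl libraries, against 7.87% of all genes. The median over the 8 was -0.26 beside 0.01 over all genes tested. All 10 smooth muscle markers had lower means in Y/T KO colon as well, with a median of -0.44, 6 of them at an unadjusted p under 0.05 and 0 called, and their summed TPM was 7600 to 8324 in Ctrl and 4974 to 5849 in Y/T KO. Of 9 adipocyte markers tested, 8 had lower means in Y/T KO colon, with a median of -0.77. The part of these differences in the caveolar values was not tested.

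**Figure D3:**
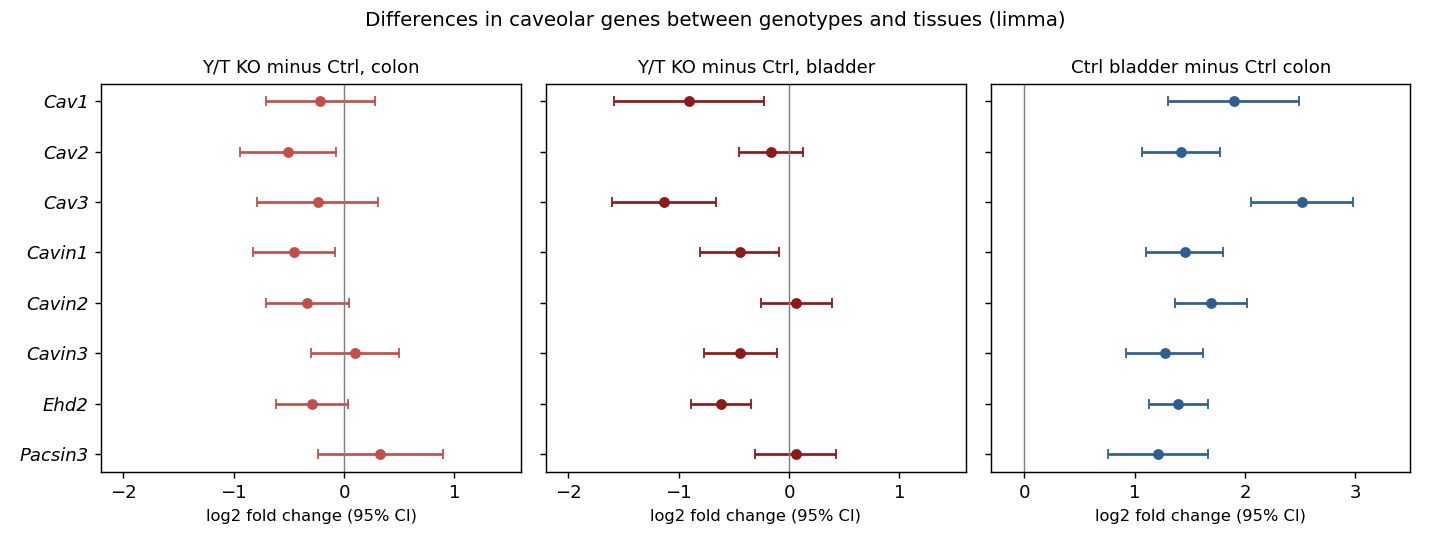
Log2 fold changes of the 8 caveolar genes from limma with 95% confidence intervals, for Y/T KO minus Ctrl in colon, Y/T KO minus Ctrl in bladder, and Ctrl bladder minus Ctrl colon (3 libraries per group). The interval lies below 0 for Cav2 and Cavin1 in colon and for Cav1, Cav3, Cavin1, Cavin3, and Ehd2 in bladder, and above 0 for all 8 between tissues.

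Whether the knockout effect differed between bladder and colon was tested as an interaction over 12 libraries. For the members, 0 of 8 differences were called by limma, where 0.0491% of 16298 genes were called, and 2 of 8 had an unadjusted p under 0.05, where 12.6% of all genes did. These were Cav3, with a bladder effect lower by 0.87 than the colon effect on the log2 scale (-0.87 ± 0.30 SE, interval -1.52 to -0.22, adjusted p = 0.283), and Cavin3 (-0.52 ± 0.23, interval -1.01 to -0.02, adjusted p = 0.375). Cav1 followed with a wide interval (-0.67 ± 0.38, -1.50 to 0.16, adjusted p = 0.486). Cavin2 had the opposite sign, with a mean below Ctrl in the colon and slightly above Ctrl in the bladder (0.42 ± 0.21, interval -0.04 to 0.89, adjusted p = 0.436). For Cavin1 the effects in both tissues were alike in size, and their difference was 0.04 ± 0.23 (interval -0.46 to 0.53).

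The proportions within the family were described without a test. The caveolin transcripts summed to 0.442 to 0.513 per cavin transcript in Ctrl bladder and to 0.339 to 0.388 in Y/T KO bladder, so the groups did not overlap. In the colon this ratio was 0.338 to 0.381 in Ctrl and 0.299 to 0.406 in Y/T KO. Cavin1 made up 62.4% to 65.8% of cavin transcripts in Ctrl colon and 54.1% to 60.8% in Y/T KO colon, while Cavin3 made up 21.9% to 25.6% in Ctrl and 26.1% to 33.8% in Y/T KO. In the bladder, Cavin3 made up 20.3% to 21.4% in Ctrl and 19.0% to 19.7% in Y/T KO, opposite in direction to the colon, and Cavin2 made up 14.0% to 17.2% of cavin transcripts in Ctrl and 17.8% to 22.9% in Y/T KO. The groups overlapped for the Cavin1 share in bladder, the Cavin2 share in colon, and the shares of Cav1, Cav2, and Cav3 among caveolin transcripts in both tissues. With 3 libraries against 3, an exact permutation test of such a ratio cannot give a two-sided p below 0.10, and these ratios were formed after the values were seen, so they are given as ranges.

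**Figure D4:**
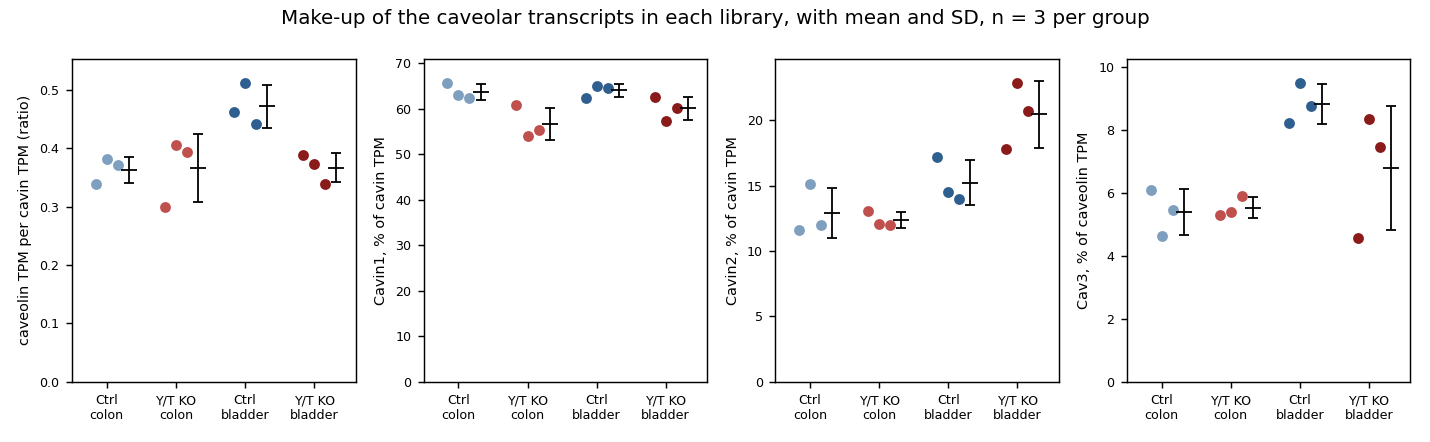
Summed caveolin TPM per summed cavin TPM, and Cavin1, Cavin2, and Cav3 as a percentage of the transcripts of their family, in each library (points) with mean and SD (n = 3 per group). The caveolin to cavin ratio of Y/T KO bladder, 0.339 to 0.388, lies below that of Ctrl bladder, 0.442 to 0.513.

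Correlations between members are given as a description, and differences between tissues were not tested. Over the 6 bladder libraries, among which genotype and smooth muscle level also vary, Pearson's r was 0.997 between Cav1 and Cavin1, 0.991 between Cav1 and Cavin3, 0.943 between Cav3 and Ehd2, 0.891 between Cavin1 and Ehd2, and 0.754 between Cav1 and Cav3. Cavin2 stood aside from Cav1 (r = 0.109) and from Ehd2 (r = 0.030). Over the 6 colon libraries, r was 0.912 between Cav1 and Cav3, 0.738 between Cav1 and Cavin3, and 0.400 between Cav1 and Cavin1. Cavin1 had r of 0.963 with Ehd2 and 0.849 with Cavin2. Cav2 and Cav1, whose genes lie 17.2 kb apart on chromosome 6 in the same direction, had r of -0.118 in the colon libraries and 0.196 in the bladder libraries.

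The genes most like Cav1, by the mean of r over the 6 colon and the 6 bladder libraries among 16298 genes, were Mrgprf (0.958), Jph2 (0.946), Gm10029 (0.945), Actr1a (0.938), and Cd248 (0.938). Jph2 encodes junctophilin, which holds the sarcoplasmic reticulum close to the plasma membrane, and Cd248 is known from pericytes and fibroblasts. Mrgprf was at 48.0 to 49.1 TPM in Ctrl bladder and at 40.5, 28.4, and 28.1 in Y/T KO bladder. The genes most like Cavin1 were Bves (0.97), Sntg2 (0.957), Nkd2 (0.951), Folr1 (0.950), and Fzd2 (0.946). Bves, a popeye domain protein reported to bind caveolin, was at 44.0 to 44.8 TPM in Ctrl bladder and at 38.3, 25.6, and 24.7 in Y/T KO bladder. Both genes were picked for likeness over libraries of both genotypes, so their lower values in Y/T KO bladder follow from that choice. The ranking itself, over 6 libraries per tissue, was not tested.

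Among 16 further proteins of the caveolar coat, neck, and scission, 0 of 14 tested in the colon and 0 of 15 tested in the bladder were called, with medians of -0.08 and -0.26. At an unadjusted p under 0.05, 3 were lower in colon (4.59% of all genes), and 3 were lower (8.2% of all genes) and 1 higher in bladder. The lowest p in the colon belonged to Flna, an actin crosslinker that ties caveolae to stress fibers (-0.51 ± 0.14 SE, adjusted p = 0.358), and Popdc2 (-0.66 ± 0.21, adjusted p = 0.424). Those in the bladder belonged to Bves (-0.61 ± 0.16, adjusted p = 0.181) and Pacsin2, a neck protein (-0.28 ± 0.10, adjusted p = 0.291). Between Ctrl tissues, 9 were called higher and 2 lower in bladder of the 14 that passed the filter in both tissues, where 51.4% of all genes were called and 25.9% called higher. The largest were Bves (3.26), Popdc2 (3.12), Flna (2.06), Ehd4 (1.64), and Dnm1 (1.61) as log2 fold changes. Popdc3 passed the filter only in the bladder, where it was high, and was left out of this count. For the interaction 0 of 14 were called, and the lowest p were those of Cavin4 (adjusted p = 0.43) and Flot1 (adjusted p = 0.463). Ehd1 was listed at 0 in all 12 libraries, and whether this reflects the tissues or the quantification was not tested.

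Among 20 receptors, channels, pumps, and kinases known to gather in caveolae, 0 of 19 tested in colon and 0 of 20 tested in bladder were called for genotype, with medians of -0.02 in colon and -0.06 in bladder. Atp2b4, a plasma membrane calcium pump, was at 25.6, 42.5, and 21.9 TPM in colon of Ctrl mice and at 5.40, 15.3, and 8.86 in Y/T KO colon (-1.63 ± 0.38 SE, adjusted p = 0.277). In the bladder it was at 169 to 172 TPM in Ctrl and at 132, 111, and 87.9 in Y/T KO (-0.65 ± 0.14, adjusted p = 0.148). These groups did not overlap in either tissue. Src, a kinase that phosphorylates caveolin-1, was at 55.1, 62.3, and 63.5 TPM in Ctrl bladder and 37.5, 42.5, and 40.3 in Y/T KO (-0.59 ± 0.10, adjusted p = 0.103), while the colon groups overlapped (0.05 ± 0.14, adjusted p = 0.925). Ednra, the endothelin A receptor, was at 9.92 to 12.3 TPM in Ctrl colon and 14.9 to 19.2 in Y/T KO colon (0.61 ± 0.17, adjusted p = 0.372). For the difference between tissues, Src (-0.61 ± 0.17, adjusted p = 0.228) and Insr, the insulin receptor (0.54 ± 0.24, adjusted p = 0.389), had the lowest p and 0 of 19 were called. Of the 19 that passed the filter in both tissues, 12 were called higher and 4 lower in Ctrl bladder than in Ctrl colon, beside the same 25.9% and 51.4% of all genes. The largest were Slc8a1 (2.77), Atp2b4 (2.30), Slc2a4 (1.96), Nos3 (1.78), and Cd36 (1.75), and Htr2a, which passed only in the bladder, was left out.

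All 8 genes had the coordinates of GENCODE release M21 on GRCm38, and some overlapped other genes. The exons of Cavin3, on the minus strand of chromosome 7, overlapped Gm45667 on the opposite strand and shared 20.1% of their 50-base words with it, and those of Pacsin3 overlapped the noncoding Gm17281. Gm45667 stayed at or below 1.01 TPM and Gm17281 at or below 0.83 TPM in every library. The kit keeps strand, but the strand setting of the counting was not given in the sources used here, so reads of these pairs may not have been separated. Pacsin3 and the remaining members shared no 50-base word with another gene.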

How the data were processed

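Whole distal colon and bladder of 9 mice gave 12 stranded libraries of polyadenylated RNA. Per the labels, reads were processed with bcl2fastq, FastQC, HISAT2, and StringTie on GRCm38 (versions not given in the sources used here). The tables the authors deposited hold, for each gene, coverage (mean reads per base), FPKM (fragments per kilobase, scaled by StringTie to each library's mapped fragments), and TPM (scaled to 1000000 per library). No read counts were used, so the study's test on counts was replaced by limma. Aligned bases were taken from the ratio of coverage to FPKM that occurred most often.

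TPM values were summed by gene ID and divided by median-of-ratios size factors (0.968 to 1.11 in colon, 0.966 to 1.04 in bladder, 0.878 to 1.14 over 12 libraries). A gene was kept in a tissue where 3 or more of its 6 libraries reached 0.5 TPM, in both tissues for the interaction and in either for the comparison of Ctrl tissues. After adding 0.1 and taking log2, values were fitted in limma 3.58.1 (R 4.3.3, trend and robust options), within each tissue or over 12 libraries, with Benjamini-Hochberg adjustment over all genes tested. Fold changes are on this scale, which understates those of low genes. p-values are two-sided. Each library is a separate mouse within a tissue, and mice 788, 783, and 780 gave both tissues, which pairs them. Deviations of same-mouse libraries from their group means correlated by -0.0162 to 0.0889. The script was tested on simulated data. Alternatives were other pseudocounts, filters, scalings, and limma options, an adjusted p of 0.1, a single fit, the mouse as a block, each library left out, and, chosen after seeing the data, 3 bladder libraries left out.

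The members and lists were chosen with earlier results of these data known. Named were all members, the 2 list genes of lowest p per comparison or, where any were called, the 6 with the largest change, the 5 genes most like Cav1 and Cavin1, at most 3 markers per list, and both targeted genes. Figures were drawn with Python 3.11.15 and matplotlib 3.10.9. Sequences and starts came from RefSeq, gene models from GENCODE M21.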

Additional observations from a re-analysis of the deposited data

How the results depend on the processing

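The number of members called was the same under every alternative tried: 0 of 8 for genotype in either tissue and for the interaction, and 8 of 8 between Ctrl tissues. In the bladder 2 members came close to the threshold with all 12 libraries in one fit. There the limma adjusted p was 0.0508 for Cav3 and 0.0598 for Ehd2. Under single alternatives, 597 fold changes of members kept their direction and their side of the threshold and 11 changed sign, all of them small and none past the threshold. With FPKM as deposited, the Cavin1 interaction was -0.000858. With each library left out in turn, Cavin3 in colon ran from -0.033 to 0.18 (below 0 without Ctrl mouse 786 or Y/T KO mouse 783), Cavin2 in bladder from -0.052 to 0.16 (below 0 without Ctrl mouse 788), and Pacsin3 in bladder from -0.063 to 0.19 (below 0 without Ctrl mouse 785 or Y/T KO mouse 780). Without a change of sign, Cav3 in colon ran from -0.38 to -0.11, Cavin2 in colon from -0.41 to -0.21, and Cav2 in bladder from -0.27 to -0.09. The interaction of Cavin1 ran from -0.13 to 0.13, and that of Pacsin3 from -0.39 to 0.013. With the mouse as a replicate block, which the pairing of 3 mice allows, the Cav3 interaction was -0.86, with 0 of 8 members called, and the block changed no other call. The cause of these changes was not tested. The count of all genes called depended on the setting, at 24 in the colon (6 without a filter, 75 with 12 libraries in the fit, 42 at an adjusted p under 0.1, 5 without Ctrl mouse 786 or Y/T KO mouse 783 or 780, 9 without Ctrl mouse 787, 13 without Ctrl mouse 788, and 63 without Y/T KO mouse 759) and 55 in the bladder (140 at that threshold, 11 to 29 without any 1 library except Y/T KO mouse 782, 9 without the 3 bladder libraries with more fast-fiber transcripts). For the interaction it was 8 (25 at that threshold, 13 without the colon of Ctrl mouse 786, 28 without that of Y/T KO mouse 759, 15 without the bladder of mouse 782). Without a filter, the interaction count was 12. Depth was not expressed in reads, so the counting error of low values such as Cav3 in colon was not known.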

Other observations

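Each member was also set against the geometric mean of the 10 smooth muscle markers in the same library. On this scale no member had a lower mean in Y/T KO colon than in Ctrl colon. In the bladder only Cav1 and Cav3 had a lower mean in Y/T KO. In the colon, Cavin3 was at 20.0% to 25.9% of the marker mean in Ctrl and at 34.3% to 36.6% in Y/T KO. Pacsin3 was at 2.72% to 4.66% and 5.68% to 7.91%. Ehd2, whose own TPM was lower in all 3 colon knockouts, was higher on this scale, at 16.5% to 18.8% and 19.0% to 23.5%. Cavin1, whose own TPM did not overlap between genotypes in the colon, did overlap on this scale, at 57.3% to 67.6% in Ctrl and 58.7% to 80.2% in Y/T KO. In the bladder, Cavin1 was at 32.6% to 36.4% in Ctrl and at 39.2% to 45.9% in Y/T KO, and Cavin2 had means of 8.29% ± 1.53 and 14.2% ± 2.66 (SD, n = 3). Cav3 was at 1.95% to 2.61% in Ctrl bladder and at 1.11% to 2.14% in Y/T KO bladder, the lowest value being that of mouse 782. These proportions were formed after the values were seen and carry no test.

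Of 6 macrophage markers, all had fitted log2 fold changes above 0 in Y/T KO colon (median 0.40), although the mean TPM of Adgre1 was lower there (24.8 against 26.0). In Y/T KO bladder 5 of 6 were below 0 (median -0.26) and Csf1r was at 0.06, with 0 called by limma in either tissue. At an unadjusted p under 0.05, 3 of 6 were higher in colon, where 899 of all 17500 genes tested were. In bladder 1 of 6 was lower, where 8.2% of all genes were. For the difference of the effect between tissues, 0 were called and 3 of 6 had an unadjusted p under 0.05, where 12.6% of all genes did. The 3 in colon and the 3 in this comparison were the C1q genes. These lie close together on chromosome 4, so they are not separate signs of macrophages.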
